A study of Mus musculus with 14 samples.

Results

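Long-chain fatty acids reach a cell either bound to albumin or as triglyceride in lipoproteins. Lipoprotein lipase (*Lpl*) splits that triglyceride at the vessel wall, where GPIHBP1 (*Gpihbp1*) carries the enzyme across and anchors it to the endothelial cell, and ANGPTL4 (*Angptl4*) inactivates it. CD36 (*Cd36*) and the fatty acid transport proteins (*Slc27a1*, *Slc27a3* and *Slc27a4*) then promote uptake, and the fatty acid-binding proteins carry the lipid in the cytosol. *Fabp3* is the form of heart and skeletal muscle, *Fabp4* that of adipocytes, macrophages and capillary endothelium, and *Fabp5* that of epidermis and several other tissues. The intervertebral disc is largely avascular, so its cells lie far from the vessels at which these proteins are best known.

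These 10 genes were taken by symbol from the 55487 genes counted in mouse caudal discs, and all 10 were among the 16915 genes that passed the filter on low counts (CPM, the count scaled to library size, above 1 in at least 3 libraries). RNA came from male mice, with 5 discs of the tail pooled per mouse and 1 library per mouse. Homozygous db/db mice (n = 3) carry a point mutation in the leptin receptor in every cell, their heterozygous db/+ littermates (n = 3) were the control, and both were 12 weeks old. C57BL/6J mice that were 12 weeks old by the methods received a high-fat diet for 4 to 6 weeks, a single dose of streptozotocin (STZ, a toxin of the insulin-producing β-cell) at 100 mg/kg, and the same diet for 12 more weeks (STZ-HFD, n = 4). Their controls (Con+Veh, n = 4), called wild type in the labels, received chow with 13% of kcal from fat and citrate buffer, so that STZ and diet were changed together and cannot be told apart. The fat in the high-fat diet is 60% of kcal by the methods and 80% by the labels. All 14 libraries carry 1 batch label.

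Libraries held 16076908 to 58943169 counts, of which 28.1% to 60.2% fell on ribosomal RNA, and 3 counts correspond to 0.0509 to 0.187 CPM, a floor that covers counting error only. The markers of the disc were present in every library, with summed CPM of 38197 to 59910 in db/+, 18395 to 46956 in db/db, 5171 to 17069 in Con+Veh and 1479 to 2981 in STZ-HFD. Fast skeletal muscle markers were present too, at 3362 to 27289 CPM, as were adipocyte markers, at 201.4 to 1011 CPM, so that these libraries are not of disc cells alone. *Lepr* had 309, 534 and 375 counts in db/db and 472, 374 and 391 in db/+, and a point mutation does not have to change this count. The models were set against their own controls in a single limma fit of all 14 libraries. A change is called here where its Benjamini-Hochberg adjusted p over the genes tested was below 0.05 and its log2 fold change was 1 or more in either direction. In such bulk samples, fewer cells of a type and less RNA per cell cannot be told apart.

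Of the members with a change called in either model, *Cd36*, *Fabp3* and *Slc27a1* had promoter windows in RefSeq (GRCm38.p6), and stretches from before the start site are shown for these. Capitals mark matches to a nuclear receptor half-site (AGGTCA, or TGACCT on the other strand), a CCAAT box (CCAAT) or a GC box (GGGCGG), searched on both strands. The stretch of *Cd36* is chr5:17835897-17836146 on the minus strand, and its start site lies inside the longer GENCODE gene. That of *Fabp3* is chr4:130308488-130308594 on the plus strand, the first 107 of the 250 bases before the RefSeq start, since the GENCODE gene begins at 130308595 and the rest is not shown. It overlaps a coding exon of the predicted gene *Gm10570* on the other strand. That of *Slc27a1* is chr8:71568621-71568870 on the plus strand, the first of 3 windows of this gene.
Cd36: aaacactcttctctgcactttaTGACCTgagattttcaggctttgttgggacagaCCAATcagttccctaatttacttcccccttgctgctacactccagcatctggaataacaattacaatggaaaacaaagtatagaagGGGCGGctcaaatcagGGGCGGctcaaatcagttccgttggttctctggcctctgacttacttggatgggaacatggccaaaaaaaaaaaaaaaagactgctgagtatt
Fabp3: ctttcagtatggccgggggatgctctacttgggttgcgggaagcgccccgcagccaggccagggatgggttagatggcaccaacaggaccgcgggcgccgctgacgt
Slc27a1: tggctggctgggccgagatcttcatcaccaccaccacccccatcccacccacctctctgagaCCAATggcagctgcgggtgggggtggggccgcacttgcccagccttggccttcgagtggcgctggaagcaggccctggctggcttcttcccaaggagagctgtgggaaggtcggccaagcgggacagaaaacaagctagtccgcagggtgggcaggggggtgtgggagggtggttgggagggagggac
The half-site of *Cd36* began 228 bases before the start, and the half-site was found in 16.3% of 32851 mouse windows of the same length and in 1 of the 7 windows of members. The spaced repeat AGGTCANAGGTCA, the textbook PPAR response element, was in none of the 7 windows and in 0.0396% of all windows. GC boxes were in 5 of the 7 windows against 35.7% of all, CCAAT boxes in 4 against 37.4%, and the TATA box (TATAAA) in none against 13.6%. These matches describe letters only. *Fabp4*, *Fabp5*, *Lpl*, *Gpihbp1* and *Angptl4* are named without a window.

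In db/db discs, *Cd36*, *Lpl* and *Fabp4* rose against db/+, to 4.46-fold, 4.28-fold and 2.56-fold in the limma fit. In STZ-HFD discs, *Fabp3* rose 9.61-fold against Con+Veh, and *Cd36* and *Slc27a1* rose 2.18-fold and 2.04-fold. Only *Cd36* was called in both comparisons, whose controls are different mice, and in neither was a member called lower. The 3 of 10 members called higher compare with 1.23% of all genes tested in db/db and 1.3% in STZ-HFD, and 1.66% and 2.61% of genes were called in either direction. In db/db, 4 of the 10 members were higher in every library than in any db/+ library, against 14.1% of all genes, and in STZ-HFD 4 of 10 were, against 1.97%. The members were chosen with earlier results of these data known, so these shares are a description and no test of the set. The paper had already named *Cd36* among the genes higher in both models.

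**Figure D1:**
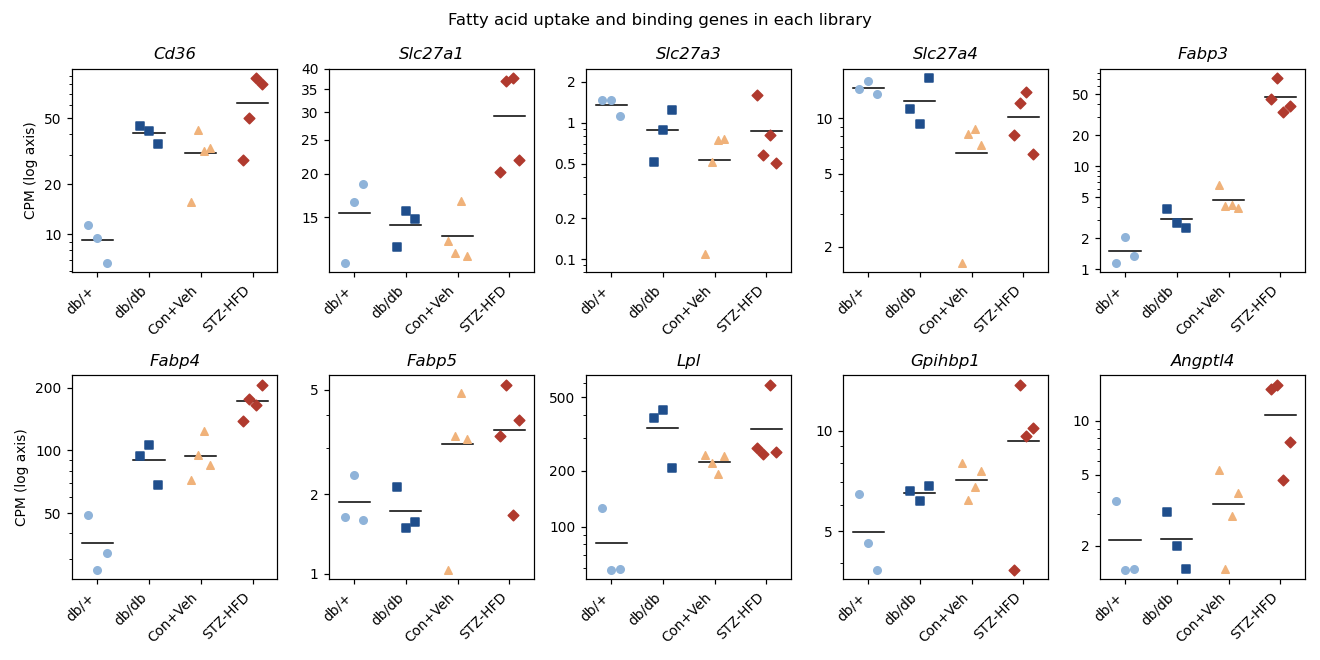
CPM (log axis) of the 10 genes in each of the 14 libraries, with 1 point per library and a bar at the group mean. All 4 STZ-HFD libraries lay from 33.2 to 72.0 CPM of *Fabp3*, above every other library, and the 3 db/+ libraries were the lowest of all 14 for *Cd36*, *Fabp4* and *Lpl*.

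Among the surface proteins, *Cd36* (ENSMUSG00000002944, chromosome 5 from 17781690 to 17888801, minus strand, GRCm38) was at 45.2, 42.0 and 35.0 CPM in db/db and at 11.4, 9.55 and 6.72 CPM in db/+. The groups did not overlap, and the log2 fold change was 2.16 (SE 0.306, limma adjusted p = 0.00784). In Con+Veh it was at 15.6, 42.6, 31.9 and 33.2 CPM, and in STZ-HFD at 27.96, 50.1, 87.5 and 80.7 CPM. Here the groups overlapped, since Con+Veh 2 to 4 lay above STZ-HFD 1, and Con+Veh 1 was the lowest library of its group. The log2 fold change was 1.12 (SE 0.255, limma adjusted p = 0.0244), and its difference from that in db/db, -1.03 (SE 0.398, limma adjusted p = 0.187), did not pass the test.

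*Slc27a1* (ENSMUSG00000031808, chromosome 8 from 71568882 to 71587302), the transport protein of muscle and adipose tissue, was at 20.2, 37.0, 37.7 and 21.9 CPM in STZ-HFD and at 12.8, 11.9, 16.7 and 11.6 CPM in Con+Veh. Every STZ-HFD library lay above every Con+Veh library, with STZ-HFD 2 and 3 above STZ-HFD 1 and 4. The log2 fold change of 1.03 (SE 0.246, limma adjusted p = 0.0309) lay close to the minimum of 1. In db/db it was at 12.3, 15.6 and 14.8 CPM against 11.1, 16.6 and 18.6 CPM in db/+, and the log2 fold change was -0.08 with a 95% confidence interval from -0.65 to 0.48. The difference between the models was 1.11 (SE 0.364, limma adjusted p = 0.121). In the transcript counts, the protein-coding isoform *Slc27a1-201* was at 0 in every library. Most counts of this gene lay in isoforms annotated as keeping an intron. *Slc27a1-205*, one of these, held 86.3, 260.6, 199.8 and 35.2 counts in STZ-HFD and 92.0, 27.1, 92.0 and 44.0 in Con+Veh. Whether the rise is one of coding RNA was not tested.

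The other transport proteins were not called in either model. *Slc27a4* (ENSMUSG00000059316, chromosome 2 from 29802634 to 29817522), which also activates very long-chain fatty acids, ranged from 9.36 to 16.6 CPM over the 6 db libraries. Con+Veh 1 stood at 1.63 CPM where Con+Veh 2 to 4 had 7.17 to 8.74 CPM, and STZ-HFD ranged from 6.39 to 13.98 CPM. Its log2 fold changes were -0.29 (95% confidence interval -0.96 to 0.38) in db/db and 0.40 (-0.33 to 1.12) in STZ-HFD. *Slc27a3* (ENSMUSG00000027932, chromosome 3 from 90385239 to 90389938), an acyl-CoA synthetase of the same family, had the fewest counts, 4 to 85 per library, and intervals from -1.56 to 0.19 in db/db and from -1.20 to 1.40 in STZ-HFD that span a change in either direction.

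*Fabp3* (ENSMUSG00000028773, chromosome 4 from 130308595 to 130315463, plus strand) was at 45.1, 72.0, 33.2 and 38.3 CPM in STZ-HFD and at 6.63, 4.11, 4.18 and 3.97 CPM in Con+Veh. The groups did not overlap, and the log2 fold change was 3.26 (SE 0.276, limma adjusted p = 9.26e-06). In db/db it was at 3.86, 2.80 and 2.51 CPM against 1.15, 2.05 and 1.34 CPM in db/+. Those groups did not overlap either, but the log2 fold change of 0.98 (SE 0.378, limma adjusted p = 0.152) did not pass the test. The change in STZ-HFD exceeded that in db/db by 2.28 on the log2 scale (SE 0.468, limma adjusted p = 0.0258), and *Fabp3* was the 1 member called for this difference, against 1.77% of genes. This call was lost without db/db 3 (limma adjusted p = 0.0609), db/+ 2 (0.104), Con+Veh 3 (0.129) or Con+Veh 4 (0.0592), and the difference then stood at 2.15, 2.01, 2.24 and 2.23.

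Reads of *Fabp3* can be shared with a copy. The processed pseudogene *Fabp3-ps1* held 104, 196, 132 and 129 counts in STZ-HFD and 30, 20, 16 and 6 in Con+Veh, where *Fabp3* itself held 1097, 2094, 1069 and 1289 and 244, 198, 89 and 73 counts. The pseudogene was also called higher in STZ-HFD, by 2.92 on the log2 scale, and how the counting split reads between the copies is not known. *Gm10570* and *Zcchc17* overlap *Fabp3* on the other strand, and the strand of counting is not stated. *Gm10570* had 0 counts in every library outside STZ-HFD and at most 6 within it, and *Zcchc17* was at 17.1 CPM in STZ-HFD and 23.6 CPM in Con+Veh on average.

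*Fabp4* (ENSMUSG00000062515, chromosome 3 from 10204088 to 10208576) was at 94.4, 106.5 and 67.9 CPM in db/db and at 48.7, 26.6 and 32.2 CPM in db/+. No library overlapped, and the log2 fold change was 1.36 (SE 0.269, limma adjusted p = 0.0237). In STZ-HFD it was at 138.5, 177.2, 164.4 and 206.6 CPM against 71.8, 94.8, 124.5 and 85.5 CPM in Con+Veh. The groups did not overlap here either, but the log2 fold change of 0.76 (SE 0.231, limma adjusted p = 0.0792) was not called, although it was with transcript counts summed per gene (1.10, limma adjusted p = 0.0433). *Fabp5* (ENSMUSG00000027533, chromosome 3 from 10012548 to 10016607), which lies on the same chromosome, was low in every library, from 1.03 to 5.23 CPM, with its lowest and its second highest value in the libraries of a single group, Con+Veh. Its log2 fold changes were -0.14 (95% confidence interval -1.05 to 0.77) in db/db and -0.34 (-1.17 to 0.49) in STZ-HFD, and both took the other sign under some of the alternatives tried.

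Of the lipase and its partners, *Lpl* (ENSMUSG00000015568, chromosome 8 from 68880491 to 68907448) was at 385.8, 425 and 207.8 CPM in db/db and at 126.2, 58.2 and 58.7 CPM in db/+. The 2 higher db/db libraries held about the same level and db/db 3 a lower one, still above every db/+ library. The log2 fold change was 2.10 (SE 0.378, limma adjusted p = 0.0164). In STZ-HFD it was at 266.4, 246.7, 584.9 and 254.4 CPM and in Con+Veh at 242.7, 221.7, 192.2 and 239.5 CPM. The groups did not overlap, but 3 of the 4 STZ-HFD libraries exceeded the highest Con+Veh library by little, STZ-HFD 3 stood apart, and the log2 fold change of 0.71 (SE 0.314, limma adjusted p = 0.243) was not called and was 0.27 without STZ-HFD 3. The difference between the models was -1.39 (SE 0.491, limma adjusted p = 0.151).

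*Gpihbp1* (ENSMUSG00000022579, chromosome 15 from 75596628 to 75599481) was at 6.17 to 6.83 CPM in db/db and 3.82 to 6.44 CPM in db/+, and its intervals ran from -0.13 to 1.00 in db/db and from -0.07 to 1.01 in STZ-HFD on the log2 scale. In STZ-HFD its values of 3.82, 13.8, 9.63 and 10.2 CPM enclosed the Con+Veh range of 6.21 to 7.99 CPM. *Angptl4* (ENSMUSG00000002289, chromosome 17 from 33773750 to 33781830) was at 15.0, 15.96, 4.66 and 7.58 CPM in STZ-HFD and at 5.33, 1.48, 2.91 and 3.97 CPM in Con+Veh. Only Con+Veh 1 against STZ-HFD 3 overlapped, but the log2 fold change of 1.32 (SE 0.428, limma adjusted p = 0.0998) was not called by limma, while DESeq2 called it (1.68, adjusted p = 0.0311). In db/db it was at 3.10, 1.98 and 1.48 CPM against 3.55, 1.46 and 1.48 CPM in db/+, with a log2 fold change of 0.12 and an interval from -0.93 to 1.17.

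**Figure D2:**
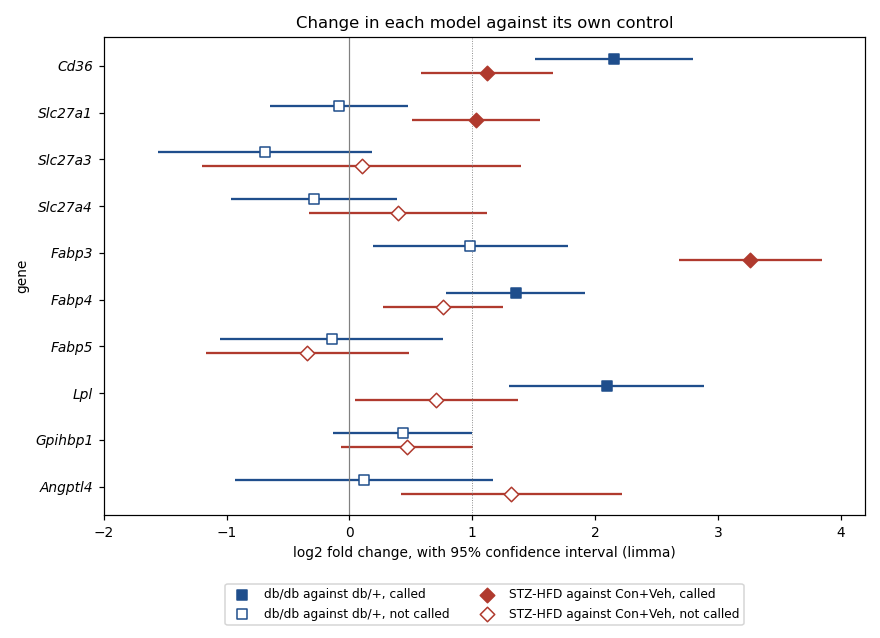
Log2 fold change of each gene in db/db against db/+ (squares) and in STZ-HFD against Con+Veh (diamonds), with the 95% confidence interval of the limma fit; filled points were called and the dotted line marks the minimum of 1. *Fabp3* in STZ-HFD, at 3.26, stands apart from all other values, while *Cd36*, *Fabp4* and *Lpl* lie farther to the right in db/db than in STZ-HFD.

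Per kb of exon, *Fabp4* and *Lpl* were the most abundant members in db/+, at 7.99 and 7.73 CPM per kb on average, with overlapping ranges (5.94 to 10.8 and 5.56 to 12.0). *Slc27a4*, *Slc27a1*, *Cd36*, *Gpihbp1* and *Fabp3* followed there at 3.32 down to 1.84, with neighbours in this order overlapping, and *Angptl4*, *Slc27a3* and *Fabp5* were at 0.611, 0.529 and 0.524. In db/db the order opened with *Lpl* (32.4), *Fabp4* (20.0) and *Cd36* (11.4), and *Cd36* stood above *Fabp3* (3.71) without overlap. In Con+Veh *Lpl* and *Fabp4*, at 21.4 and 20.98, did not differ beyond their spread, and *Fabp3*, at 5.74, came after *Cd36*, at 8.58. In STZ-HFD *Fabp3*, at 57.3 CPM per kb, was the first, but its range of 40.3 to 87.5 overlapped those of *Fabp4* (30.9 to 46.0) and *Lpl* (23.5 to 55.8). *Slc27a3* was the lowest in every group but db/+. Lengths are those of all annotated exons of a gene, which are longer than 1 transcript where isoforms differ. For *Fabp4* this length is 4489 bases, while its isoform of 896 bases held 81.75% to 92.8% of its transcript counts in STZ-HFD. The exons of *Fabp3* cover 823 bases. Those of *Lpl* cover 10478 bases, while its longest isoform listed with transcript counts has 3954. In CPM, *Fabp4* and *Lpl* stood above *Fabp3* in STZ-HFD, at 171.7 and 338.1 against 47.2 on average. The order of *Fabp3* against both therefore depends on the length used.

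**Figure D3:**
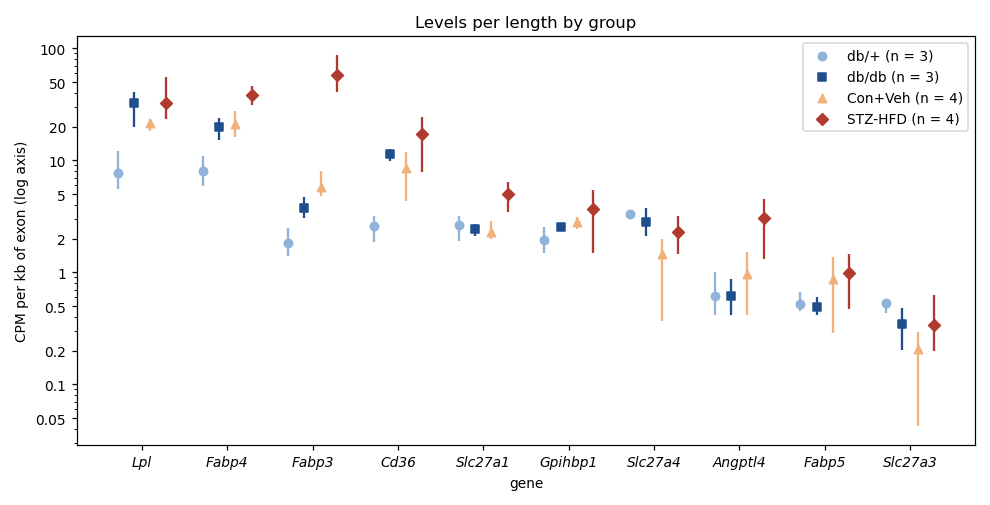
CPM per kb of exon (log axis) of each gene by group, with the mean as a point and a line from the lowest to the highest library. By the length of all annotated exons, mean *Fabp3* lay below *Lpl*, *Fabp4* and *Cd36* in Con+Veh, at 5.74, and above them in STZ-HFD, at 57.3. Its order against *Fabp4* and *Lpl* depends on the length used.

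The levels of several members moved with those of cell type markers. The 10 adipocyte markers summed to 339 to 626 CPM in db/db and 201 to 438 CPM in db/+, and 4 of the 9 tested (*Adipoq*, *Plin1*, *Retn* and *Thrsp*) were called higher. *Cfd*, the most abundant of them, went the other way, from 215.1 CPM in db/+ to 141.9 CPM in db/db on average (0.658-fold, not called). The 10 markers summed to 863 to 1011 CPM in STZ-HFD and 374 to 883 CPM in Con+Veh, where *Plin4* was called higher. An adipocyte score was taken as the mean log2 CPM of the 10 markers, which is not the log of their sum. Over the 14 libraries, log2 CPM of *Fabp4* had a Pearson r of 0.941 with this score, and that of *Cd36* 0.881. After group means were removed, r was 0.696 and 0.511, as a description of libraries that share depth and composition. For *Cd36*, r with the mean log2 CPM of fast and of slow muscle markers was 0.42 and 0.686 over all libraries. Those values were 0.601 and 0.729 after group means were removed, above that with the adipocyte score. *Lpl* had an r of 0.744 with the adipocyte score and -0.717 with the disc markers, and 0.122 and -0.794 after this removal. No adipocyte marker was at 0 in every library of a group. With the adipocyte score as a covariate, *Cd36* in db/db was at 1.71 (limma adjusted p = 0.329), *Lpl* at 2.11 (0.329) and *Fabp4* at 0.77 (0.503). No member was then called in db/db, where 4 had an unadjusted p under 0.05, nor was any of the 16915 genes, where 1616 had such a p.

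Fast skeletal muscle markers summed to 9920 to 27289 CPM in STZ-HFD and 9385 to 12456 CPM in Con+Veh, and 5 of 14 (*Acta1*, *Tnni2*, *Myh2*, *Myh1* and *Pvalb*) were called higher. In db/db they ran the other way, from 3362 to 5663 CPM against 5165 to 10088 CPM in db/+, with *Myh1* called lower. Slow muscle markers summed to 1135 to 2408 CPM in STZ-HFD and 584 to 1109 CPM in Con+Veh, with 3 of 7 called higher. *Fabp3* remained called in STZ-HFD with the fast muscle score as a covariate, at 3.04 (limma adjusted p = 0.00656), and with the adipocyte score, at 3.37 (limma adjusted p = 0.000507). STZ-HFD 1 held 45.1 CPM of *Fabp3*, the second highest level, where its fast muscle markers, at 9920 CPM, were inside the Con+Veh range and its slow muscle markers, at 1135 CPM, were above it. This is 1 library, with the fewest counts of all, 16076908, and a quality weight of 0.379 in the limma fit. Its TMM scaling factor was 1.582, against 0.6931 to 0.7424 in the other STZ-HFD libraries. The lowest quality weight was that of Con+Veh 1, 0.275. Con+Veh 2, 3 and 4 had weights of 0.462, 3.05 and 1.81, so that Con+Veh 3 and 4 counted most in the control of every STZ-HFD fold change. Over the 14 libraries, log2 CPM of *Fabp3* had a Pearson r of 0.752 with the mean log2 CPM of the fast muscle markers and 0.811 with that of the slow ones. After group means were removed, r was 0.311 and -0.030. No fit used a slow muscle score. *Cd36* in STZ-HFD was at 0.52 (limma adjusted p = 0.467) with the muscle score and *Slc27a1* stood at 1.15 (limma adjusted p = 0.147), neither of them called.

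**Figure D4:**
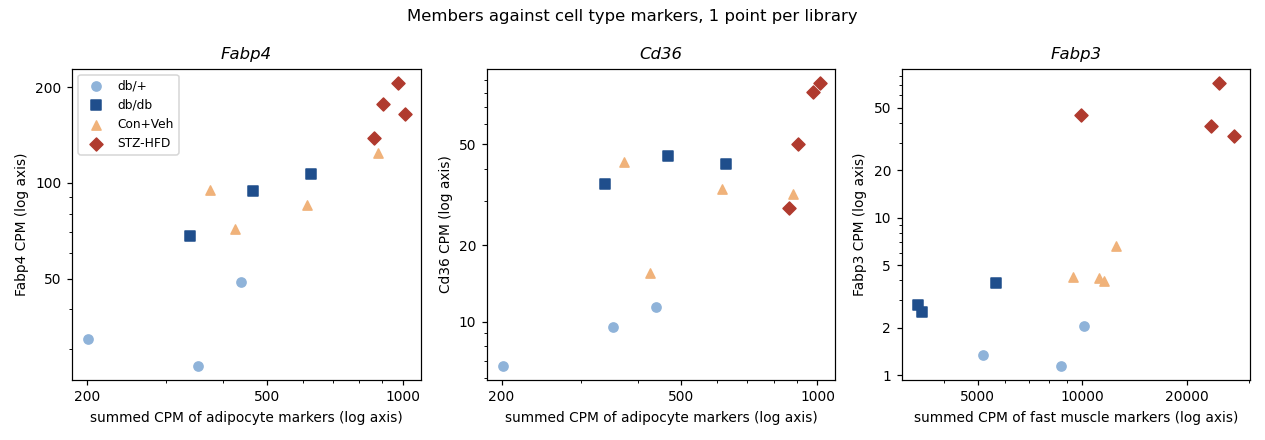
CPM of *Fabp4* and *Cd36* against the summed CPM of the adipocyte markers, and of *Fabp3* against that of the fast muscle markers, with 1 point per library and log axes. With the mean log2 CPM of the adipocyte markers, which is not the plotted sum, *Fabp4* had a Pearson r of 0.941 over all libraries. After group means were removed, this r was 0.696. The 4 STZ-HFD libraries lie highest in *Fabp3*, STZ-HFD 1 at a fast muscle sum that Con+Veh also reached and STZ-HFD 2 to 4 at sums of 23437 to 27289 CPM that no other library reached.

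The 11 endothelial markers, which bear on *Gpihbp1*, summed to 307.5 to 375.1 CPM in db/db and 198.3 to 280.5 CPM in db/+, with *Tek* called higher, and no marker was called in STZ-HFD. *Egfl7*, *Cldn5* and *Tie1* went the other way in db/db, at 0.746-fold, 0.911-fold and 0.973-fold. The remaining endothelial markers ran there from 1.04-fold (*Cdh5*) to 1.79-fold (*Emcn*). The 11 macrophage markers summed to 111.3 to 200.1 CPM in STZ-HFD and 175.6 to 351.9 CPM in Con+Veh, with 5 called lower. In db/db they summed to 148.5 to 280.1 CPM against 129 to 201 CPM in db/+, and none was called. *Mrc1*, *Lyz2* and *Fcer1g*, at 2.07-fold, 1.97-fold and 1.66-fold, were above every db/+ library, as were 14.1% of all genes. *Cd68*, *C1qb* and *Tyrobp* went the other way, at 0.871-fold, 0.844-fold and 0.797-fold. The remaining markers ran from 1.01-fold (*Csf1r*) to 2.39-fold (*Cd14*). Macrophages also express *Fabp4*, which had a Pearson r of 0.0018 with the mean log2 CPM of the macrophage markers over the 14 libraries. After group means were removed, this r was 0.63. Of the 14 disc markers, 7 were called lower in STZ-HFD (*Acan*, *Col2a1*, *Comp*, *Chad*, *Sox9*, *Hapln1* and *Fmod*). *Chad* alone went from 6958 CPM in Con+Veh to 472.8 CPM on average. The other 7 were not called. *Krt8*, *T*, *Krt19* and *Cd24a* were at 1 to 1.27-fold, and *Col9a1*, *Krt18* and *Matn3* at 0.94-fold, 0.67-fold and 0.481-fold. The erythroid markers had no call. The part of these cell types in the members' changes was not tested beyond the values with a marker score.

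Among 93 other genes of fatty acid handling in 7 lists, 75 were tested. In db/db, 2 were called higher, and in STZ-HFD 9, with 0 lower in either by limma, where 8 and 5 were lower at an unadjusted p under 0.05. All 9 belong to the 17 tested genes of fatty acid oxidation and its control that respond to PPAR, the nuclear receptors for fatty acids, and 16 of the 17 were above 0. Their median log2 fold change was 1.13 in STZ-HFD and 0.15 in db/db, where the median of all genes was -0.04 in both. Several of these genes were named by the study from these libraries, so the list is not independent evidence of its direction. Leaving out Con+Veh 3, Con+Veh 4 or STZ-HFD 3 reduced the 9 calls to 1. With the fast muscle score as a covariate, 1 gene of the 7 lists was called in STZ-HFD, and edgeR's quasi-likelihood test called 2. Calls over all genes in STZ-HFD fell as well in both. The part of muscle in this rise was not tested further.

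*Pdk4*, the kinase that turns off pyruvate dehydrogenase, went from 16.1 ± 4.89 CPM (SD, n = 4) in Con+Veh to 117 ± 38.2 CPM (SD, n = 4) in STZ-HFD, and the log2 fold change was 2.80 (SE 0.279, limma adjusted p = 7.43e-05). The dehydrogenases *Acadl* and *Acadm*, which open the oxidation of long and medium chains, rose by 1.83 and 1.16. *Decr1* and *Ech1*, which handle unsaturated chains, rose by 1.56 and 1.13, and the thiolase *Acaa2* by 1.45. *Slc25a20*, the carnitine carrier, rose by 1.66, *Mlycd*, which removes malonyl-CoA, by 1.51, and the uncoupling protein *Ucp3* by 1.83. Of the members' own nearest genes over the 14 libraries, *Pdk4* was the first for *Fabp3* (Pearson r 0.971) and *Ucp3* the first for *Angptl4* (0.884). The r for *Fabp3* and *Pdk4* was 0.397 after the group means were removed.

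In db/db the 2 calls were *Plin2*, which coats lipid droplets, from 12.8 ± 1.62 to 25.8 ± 2.34 CPM (SD, n = 3 each), and *Apoc1*, an apolipoprotein that inhibits the lipase, from 2.53 ± 0.0601 to 7.22 ± 2.86 CPM (SD, n = 3 each). Their log2 fold changes were 1.01 and 1.43 (limma adjusted p = 0.0285 and 0.0406). *Plin2* was also the gene nearest to *Cd36* over all libraries (Pearson r 0.954, and 0.833 after group means were removed). *Rgs2* was nearest to *Lpl* (0.950), *Ifi27l2a* to *Fabp4* (0.943), *Fam53b* to *Slc27a1* (0.901) and *Ndufb11* to *Gpihbp1* (0.905). For *Fabp5*, *Slc27a3* and *Slc27a4* the nearest were *Ahctf1* (0.917), *Fam234b* (0.944) and *Mogs* (0.927).

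In the remaining lists no gene was called. Of the surface proteins and lipoprotein receptors, *Lrp1* was at -0.97 in STZ-HFD (limma adjusted p = 0.0409), short of the minimum on the fold change, and *Got2* at 0.94 (0.0589), while *Cav1* and *Cavin1* were at 0.74 and 0.79 in db/db. Of the acyl-CoA synthetases and thioesterases, *Acsl1*, which traps fatty acids as CoA esters, was at 0.94 in STZ-HFD (limma adjusted p = 0.0321) and at 0.95 in db/db (limma adjusted p = 0.0718), *Acot1* at 1.16 in db/db (limma adjusted p = 0.0626) and *Acot7* at 0.69 in STZ-HFD (limma adjusted p = 0.129). Among the regulators, *Pparg*, the receptor of adipocytes, was at 1.00 in db/db (limma adjusted p = 0.101) and the coactivator *Ppargc1b* at -0.77, below every db/+ library (limma adjusted p = 0.163). *Ppargc1a*, a coactivator of mitochondrial genes, was at 0.94 in STZ-HFD (limma adjusted p = 0.0502) and *Ppara*, the receptor of liver and oxidative tissues, at 1.05 (limma adjusted p = 0.205). Of the other lipid-binding proteins, *Scp2* and *Dbi* were at 0.96 and 0.89 in db/db and *Acbd6* and *Acbd3* at 0.62 and -0.43 in STZ-HFD.

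The calls differed in how much they rested on single libraries. *Fabp3* in STZ-HFD was called under each of the 29 alternatives, with values of 3.04 to 3.50, and *Cd36* in db/db under each omission of a library, at 1.96 to 2.36. *Fabp4* in db/db was not called without db/db 1 (limma adjusted p = 0.0904), db/db 2 (0.073), db/+ 2 (0.0986) or db/+ 3 (0.0579), nor *Lpl* without these same libraries (0.0805, 0.0633, 0.0654 and 0.0516), with log2 fold changes of 1.15 to 1.31 and 1.89 to 1.98. *Cd36* in STZ-HFD was not called without Con+Veh 3 (1.15, limma adjusted p = 0.29), Con+Veh 4 (1.14, 0.138), STZ-HFD 3 (0.87, 0.325) or STZ-HFD 4 (0.92, 0.152). *Slc27a1* in STZ-HFD was not called without Con+Veh 1 (0.99, limma adjusted p = 0.0354), Con+Veh 3 (1.29, 0.176), Con+Veh 4 (0.95, 0.172), STZ-HFD 2 (0.88, 0.0624) or STZ-HFD 3 (0.83, 0.306).

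**Figure D5:**
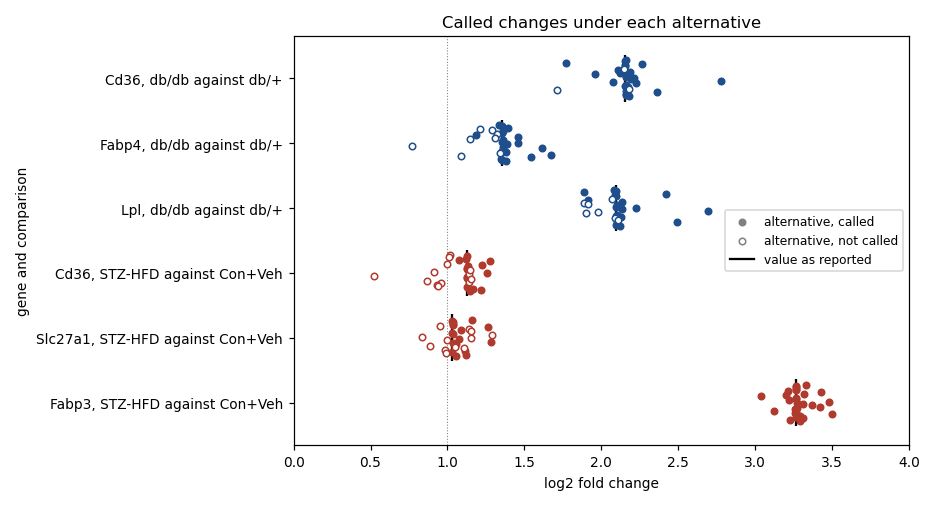
Log2 fold change of the 6 called member changes under each alternative, 1 point each, filled where the change was called; the vertical bars are the reported values and the dotted line the minimum of 1. *Fabp3* in STZ-HFD was called at every point, and each of the other 5 changes has points that were not called.

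Tools and composition mattered as well. edgeR's quasi-likelihood test called 0 members in db/db and 1 in STZ-HFD, *Fabp3* (3.32, adjusted p = 0.000132), with 4 and 5 members at an unadjusted p under 0.05, and 0 and 29 of all genes, with 1891 and 2136 at such a p. DESeq2 called 3 members in each model and 212 and 277 genes. In db/db, log2 fold changes over 16899 genes had a Spearman rho of -0.428 with the GC content of the gene, and *Cd36*, *Fabp4* and *Lpl* have a GC content of 38.4%, 42.7% and 43.5%, the lowest of the 10 members. With the GC trend removed, *Cd36* was at 1.77, *Lpl* at 1.89 and *Fabp4* at 1.09, of which the last was no longer called (limma adjusted p = 0.0524), and the calls over all genes in db/db went from 208 higher and 73 lower to 161 and 23.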

How the data were processed

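RNA of pooled discs was amplified (SeqPlex) and sequenced on a NovaSeq X Plus. The authors aligned reads with STAR 2.7.9a1 to Ensembl release 101 (GRCm38) and deposited whole-number gene counts from featureCounts 2.0.32 (versions as the submitters' processing notes give them), without normalization. They also deposited expected counts per transcript from Salmon 1.5.23, used in 1 alternative, summed and rounded, for the 28837 genes, 5 members among them, whose transcripts are all listed. The counting strand is not given in the sources used here. Of 55774 lines, 287 repeated an identifier with identical values and were used once.
Genes with CPM above 1 in at least 3 libraries were scaled by TMM (edgeR 4.0.16) and tested with limma 3.58.1 (voomWithQualityWeights, 4 group means, 14 libraries, Benjamini-Hochberg adjustment over 16915 genes) in R 4.3.3, as the paper names this test. The edgeR quasi-likelihood test and DESeq2 1.42.0 were alternatives. CPM are per TMM-scaled total. Nearest genes used log2 CPM with a prior count of 2. Groups came from the labels, each library is a separate mouse, and positions and lengths are from GENCODE M21. Named genes are all members, pathway genes called or, in a list with none, the 2 with the smallest adjusted p in each model, and of each member's nearest genes the first. Members, lists and rules were chosen with earlier results of these data known. Tests were tried on simulated data.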

Additional observations from a re-analysis of the deposited data

Results flagged for a closer look

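Dixon's criterion for 4 samples, at its 95% critical value, marked a library in 2 of the group levels of members, where chance marks about 1 group in 20. *Lpl* was at 585 CPM in STZ-HFD 3, with the gap to the next library taking 0.942 of the range of its group, and *Fabp3* was at 6.63 CPM in Con+Veh 1, with a ratio of 0.918. The log2 fold change of *Fabp3* in STZ-HFD exceeded that in db/db by 2.28 (limma adjusted p = 0.0258), a test of the difference itself. The change in db/db itself, at 0.98 (limma adjusted p = 0.152), was not called, and the difference was no longer called without db/db 3, db/+ 2, Con+Veh 3 or Con+Veh 4 (limma adjusted p of 0.0592 to 0.129).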

How the results depend on the processing

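The lowest count of a member was 4, for *Slc27a3* in Con+Veh 1, and how far depth sets the width of the intervals was not tested. The counts of calls moved more than the fold changes, as the figures for members, for the 75 tested pathway genes and for all genes show. The cause was not tested. Under filterByExpr, 1 member, 217 genes (STZ-HFD), 1 pathway gene (db/db) and 154 genes (difference between the models) were called. With no filter on low counts, db/db had 534 genes and 4 pathway genes called, STZ-HFD 130 and 5, and 0 members for the difference. edgeR's quasi-likelihood test called 0 members, 0 pathway genes and 0 genes in db/db (4, 13 and 1891 at an unadjusted p under 0.05) against 1, 2 and 29 in STZ-HFD, and 0 members and 5 genes for the difference (5 and 1991 unadjusted). DESeq2 called 277 genes in STZ-HFD. voom without quality weights called 0 members, 0 pathway genes and 9 genes for db/db, 1, 2 and 19 for STZ-HFD, and 0 and 3 for the difference. Each model alone gave 436 and 287 genes. With no minimum on the fold change, 14 pathway genes were called in STZ-HFD. Transcript counts summed per gene gave 160 genes in STZ-HFD and 153 for the difference, with fewer genes tested. The adipocyte score left 0 members, 0 pathway genes and 0 genes for db/db, 1, 5 and 166 for STZ-HFD, and 0 and 16 for the difference. The fast muscle score gave 1415 genes and 11 pathway genes for db/db, and 1 member, 106 genes and 1 pathway gene in STZ-HFD, and *Cd36* was then called for the difference (-2.25). Removal of the GC trend gave 184 genes in db/db and 194 for the difference. Without both libraries whose names end in RIP, 244 genes were called in STZ-HFD and 114 for the difference.
With each library left out in turn, db/db had 1 to 3 members, 0 to 3 pathway genes and 21 to 392 genes called, STZ-HFD had 1 to 3, 1 to 13 and 17 to 642, and the difference had 0 to 1 members and 4 to 423 genes. RLE size factors and removal of ribosomal RNA genes kept every count of calls within 1.5 times.
The replicate numbers are not known to pair the samples. Same-numbered samples had correlations of their deviations from group means of -0.28 to 0.192, and differently numbered ones of -0.275 to 0.453. Deviations within groups this small cannot settle pairing. With the replicate numbers as a block, db/db had 966 genes and 7 pathway genes called. *Fabp3* was called there too (1.25, limma adjusted p = 0.0444), which made 4 members.
Values near 0 changed sign. *Fabp5* went to 0.067 (block), 0.034 (transcript counts) and 0.083 (muscle score) in db/db, from -0.29 to 0.071 over omissions of a library, to 0.18 (edgeR), 0.21 (DESeq2), 0.35 (unweighted voom) and 0.0098 (transcript counts) in STZ-HFD, from -0.51 to 0.15 over omissions, and to 0.29, 0.30, 0.46 and 0.26 (edgeR, DESeq2, unweighted voom and adipocyte score) for the difference, from -0.42 to 0.29 over omissions. The *Gpihbp1* difference went to -0.0046 (edgeR), -0.0082 (DESeq2), -0.14 (unweighted voom), -0.77 (muscle score), -0.10 (GC) and -0.041 (without RIP), from -0.18 to 0.20 over omissions. In db/db, *Slc27a1* went to 0.29 and *Slc27a4* to 0.089 (GC), *Angptl4* to -0.062 (block), with -0.28 to 0.062 for *Slc27a1* and -0.15 to 0.52 for *Angptl4* over omissions. *Slc27a3* in STZ-HFD went to -0.092 (adipocyte score) and from -0.096 to 0.49 over omissions.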
